A study of Homo sapiens with 6 samples.

Results

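The TNF receptor superfamily members examined here are 10 receptors by which B cells receive signals from TNF-type ligands: CD40, CD27, FAS, TNFRSF1A, TNFRSF1B, TNFRSF8, TNFRSF9, TNFRSF13B, TNFRSF13C and TNFRSF17. They were taken by gene name, and every probe set with exactly 1 gene symbol equal to a member was used, which gave 19 probe sets for 10 of the 19775 genes measured. RNA came from BL-2, an established human Burkitt lymphoma cell line, either left without treatment (3 control arrays) or exposed to bacterial lipopolysaccharide (LPS), the endotoxin of Gram-negative cell walls, for 6 h (3 LPS arrays). No other agent is named for either group, the sources used here give no dose, and 1 cell line stands for B cells throughout. Whether the 3 samples of a group were separate cultures is not stated in the labels, and p-values then cover only the spread among these samples, part of which may be technical.

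Receptors of this family are membrane proteins with cysteine-rich outer repeats that bind trimeric ligands. Those with a death domain, such as FAS and TNFRSF1A, recruit adaptors that can lead to caspase activation. The others bind TRAF proteins and lead to NF-kB and MAP kinase signalling, which is not confined to them. In B cells CD40 receives T cell help in the germinal centre, the receptors for BAFF and APRIL (TNFRSF13B, TNFRSF13C and TNFRSF17) sustain survival at successive stages, and several members are themselves raised on activated B cells. Burkitt lymphoma resembles the germinal centre B cell, a stage at which FAS and CD40 signals decide between survival and death.

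None of the 10 receptors passed the test for a change after 6 h of LPS, and FAS came nearest. The limma test called 0 of the 19 member probe sets, against 0.264% of all 54613 probe sets tested (144 probe sets), with Benjamini-Hochberg adjustment over the whole table and a threshold of 0.05. At an unadjusted p under 0.05 there were 3 of 19 member probe sets, all of FAS, against 8.08% of the table. On the log2 scale of the deposited values, the 19 differences of LPS minus control ran from -0.11 for CD27 to 0.26 for FAS. Of them 10 lay above 0 and 9 below. All 95% intervals lay between -0.30 and 0.41, so that the highest value that any of these intervals allows is 1.33-fold higher and the lowest is 1.24-fold lower in LPS cells. The smallest difference among the 144 probe sets that passed was 0.29 in size. By brightest probe set, the median over the 10 genes was 0.02, and over all genes 0.0016. The count of 0 held without each of 5 arrays in turn; without control 1, 1 FAS probe set passed, as given below.

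**Figure D1:**
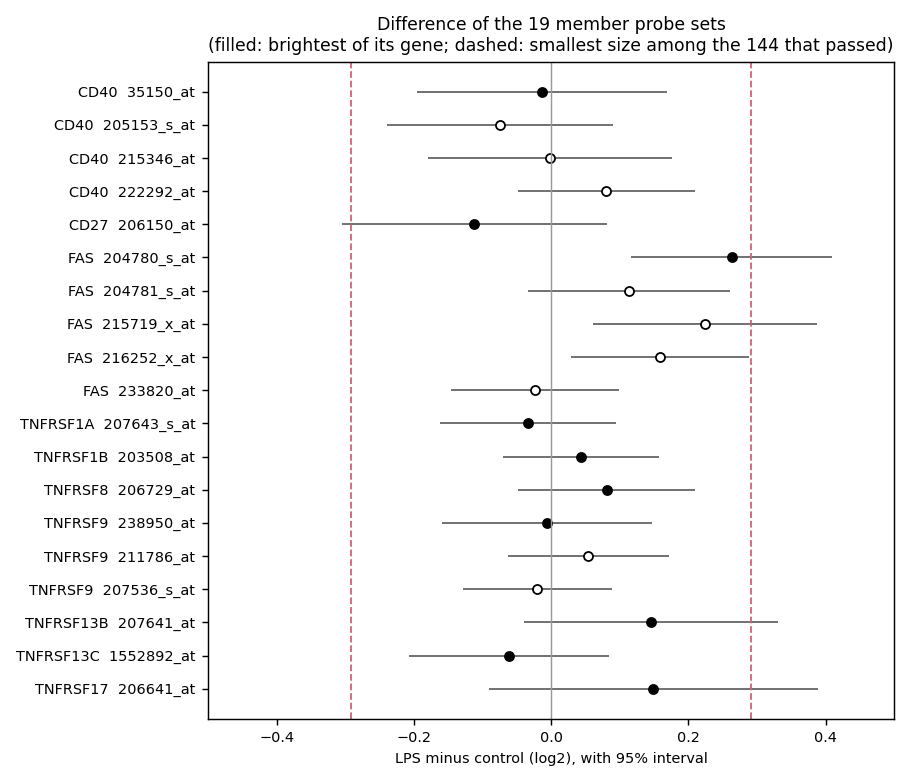
LPS minus control on the log2 scale for each member probe set, with its 95% interval; filled points are the brightest probe set of a gene, and dashed lines mark 0.29, the smallest size among probe sets that passed. All 19 points lie inside the dashed lines, and 3 of the 5 FAS points, at 0.26, 0.22 and 0.16, lie farthest right.

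The array medians ran from 6.42 to 6.47, and the lowest values of an array lie near 5.5. No detection calls were used, so for a probe set close to those medians low expression and none cannot be told apart, and a change there may be understated. Brightness differs between probe sets for reasons other than RNA amount, so levels of different genes are not ordered. The arrays fell into 2 sets by the bacterial and phage hybridisation controls added to each: set A held control 1, LPS 1 and LPS 2, and set B control 2, control 3 and LPS 3. Differences are therefore also given within each set. Among fixed marker lists, 6 of 6 measured B cell markers and 6 of 7 germinal centre markers had a mean above the upper quartile of all probe sets (7.41). Of the monocyte markers 0 of 7 did, and of the T and NK cell markers 0 of 7. The counts were 3 of 6 for plasma cell, 1 of 4 for memory B cell and 1 of 6 for fibroblast and epithelium markers. For erythroid and platelet markers it was 0 of 4. Genes were taken by their brightest probe sets, and of all 19775 genes 7480 lay above this value. In a bulk sample, fewer cells with a transcript and less transcript per cell cannot be told apart.

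**Figure D2:**
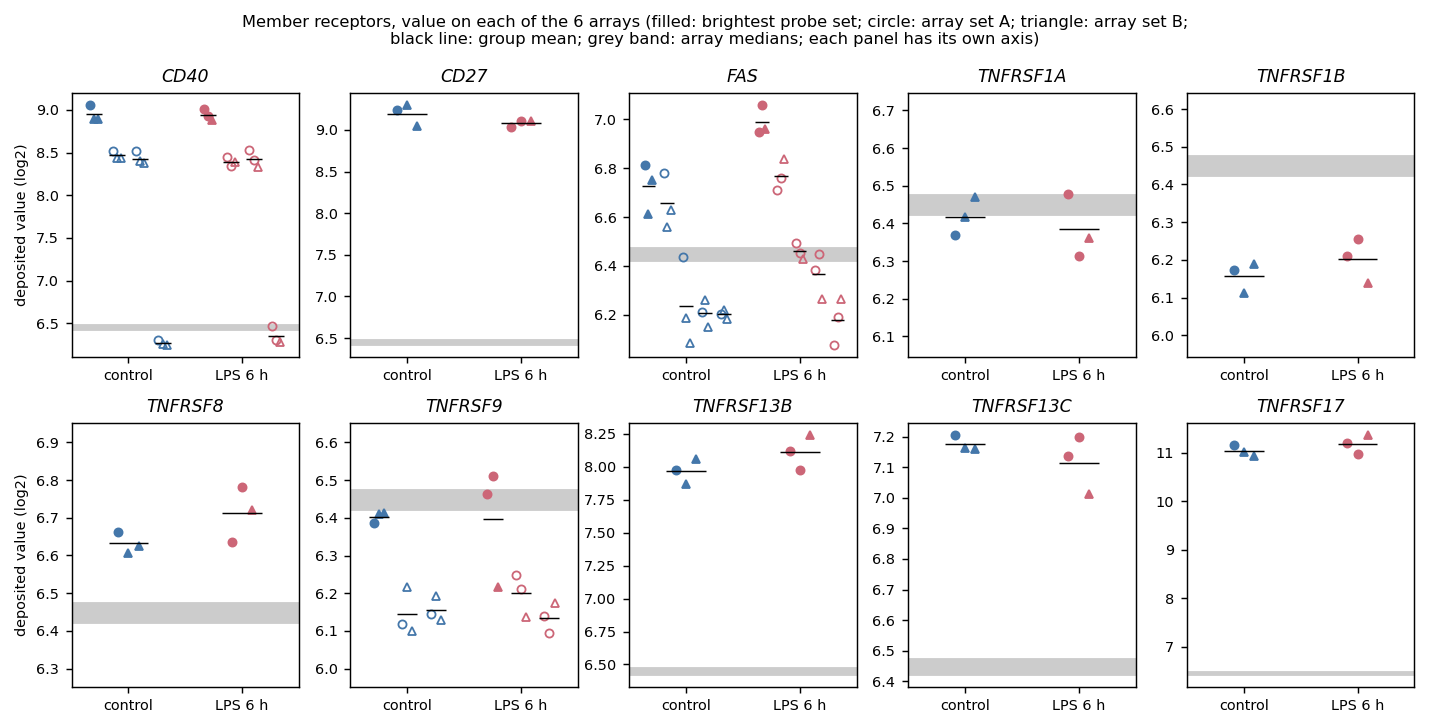
Deposited log2 value of every member probe set on each array, with group means as black lines and the range of the 6 array medians as a grey band; each panel has its own axis. CD40, CD27, TNFRSF13B and TNFRSF17 lie well above the band by their brightest probe sets, while TNFRSF1A, TNFRSF1B and TNFRSF9 lie around or below it.

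FAS (CD95), the death receptor through which T cells can remove germinal centre B cells, had the largest differences of the family. Its brightest probe set, 204780_s_at, read 6.82, 6.61 and 6.75 on control arrays 1 to 3 and 6.95, 7.06 and 6.96 on LPS arrays 1 to 3. Every LPS value lay above every control value, although all 6 were only moderately above the array medians. The difference was 0.26 (SE 0.068, 95% interval 0.12 to 0.41), which is 1.20-fold, with an unadjusted p of 0.00175 and a limma adjusted p of 0.186. It was 0.19 within array set A and 0.28 within set B. A fit with the array set as a block gave 0.23 (adjusted p = 0.10), and the fits that left out each array in turn had adjusted p from 0.0752 to 0.626.

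The other 4 FAS probe sets were close to the array medians and did not all show the same shift. That of 215719_x_at differed by 0.22 (adjusted p = 0.398), with control values of 6.44, 6.19 and 6.08 and LPS values of 6.50, 6.45 and 6.43. Control 1 overlapped the LPS arrays here. Without control 1 this probe set was called by limma, at 0.32 (adjusted p = 0.0286), and the controls left were then all of array set B while most LPS arrays were of set A. Within set A it differed by 0.04 and within set B by 0.29. The difference was 0.16 for 216252_x_at (adjusted p = 0.496), whose LPS values were all above its controls, and 0.11 for 204781_s_at (adjusted p = 0.740). Within sets A and B that of 216252_x_at was 0.20 and 0.06. That of 204781_s_at changed sign between the sets, at -0.04 in A and 0.24 in B. For 233820_at it was -0.02 (adjusted p = 0.958). This last one is the only FAS probe set without the suffix _s_at or _x_at, which marks probes that can match several transcripts. In all, 2 of 19 member probe sets had no overlap between the groups, both of FAS, against 13.4% of all probe sets.

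The genes whose 6 mean-centred values lay nearest to those of FAS were TMA16, GORAB and TAF6L. Their root mean square distances on the log2 scale were 0.029, 0.031 and 0.031, among 12653 genes brighter than the median probe set. Their own differences were 0.27, 0.22 and 0.24, and none passed (limma adjusted p = 0.311, 0.415 and 0.258).

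The promoters of FAS and TNFRSF9 are described here. Among the members with a promoter sequence, only these genes had an NF-kB consensus match near a start site. RefSeq windows (GRCh38.p14) of the 250 bases before a start site were given for 7 of the 10 members, in 9 windows, and were searched on both strands for the NF-kB consensus, 10 bases long. Of these 9 windows 2 held a match, as did 9.96% of 35116 windows of all genes. In the TNFRSF9 window, at chr1:7940840-7941089 on the minus strand, the capitals mark the joint span of a pair of overlapping matches, GGGAATTTCC, which begins 74 bases before the start, and one on the opposite strand, shifted by 1 base. FAS has 3 windows, and its match, GGGGGACCCC, reads as a match on both strands. It lies in the most downstream window, at chr10:88991181-88991430 on the plus strand, 157 bases before the start of that window. The match is thus downstream of the other FAS start sites, whose windows hold no match. The most upstream FAS window, at chr10:88990548-88990797 on the plus strand, holds no match. It is the FAS sequence printed below, for comparison, and the FAS window with the match is not printed.
TNFRSF9: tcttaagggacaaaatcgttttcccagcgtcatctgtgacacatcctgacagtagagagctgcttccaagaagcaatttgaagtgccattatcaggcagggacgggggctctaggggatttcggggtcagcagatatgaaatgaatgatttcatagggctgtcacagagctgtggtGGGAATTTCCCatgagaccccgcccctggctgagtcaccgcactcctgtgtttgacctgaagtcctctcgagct
FAS: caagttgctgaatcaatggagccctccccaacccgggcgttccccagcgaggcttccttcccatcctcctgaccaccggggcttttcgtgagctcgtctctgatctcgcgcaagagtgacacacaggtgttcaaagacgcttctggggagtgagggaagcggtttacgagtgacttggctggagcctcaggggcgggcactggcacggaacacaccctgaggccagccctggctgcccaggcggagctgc
A match is a description of the letters. The array values hold no measurement of factor binding.

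CD40, the receptor for T cell help, had 4 probe sets, none of which passed. By the brightest, 35150_at, it read 9.06, 8.90 and 8.90 in controls and 9.01, 8.93 and 8.88 in LPS cells, and the groups overlapped. The highest values were those of control 1 and LPS 1, both of array set A. The difference was -0.01 (SE 0.085, 95% interval -0.20 to 0.17, limma adjusted p = 0.986). Of the other CD40 probe sets, 205153_s_at differed by -0.07 and 215346_at by -0.0021, at control levels of 8.47 and 8.43. The dim 222292_at, at 6.27, differed by 0.08.

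CD27, the receptor for CD70 and a marker of memory and some germinal centre B cells, read 9.23, 9.30 and 9.04 in controls and 9.03, 9.10 and 9.11 in LPS cells. Control 3 lay among the LPS arrays. The difference was -0.11 (SE 0.090, 95% interval -0.30 to 0.08, limma adjusted p = 0.821), with -0.17 within array set A and -0.07 within set B. It was -0.06 without control 2 and -0.19 without control 3. Its ligand CD70 was likewise far above the array medians, with means of 9.0 ± 0.019 for control and 8.92 ± 0.074 for LPS arrays (SD, n = 3). The CD70 difference was -0.08 (limma adjusted p = 0.872).

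TNFRSF8 (CD30) and TNFRSF9 (4-1BB), a pair of TRAF-binding receptors known as markers of activated lymphocytes, stayed near the array medians in both groups. TNFRSF8 read 6.66, 6.61 and 6.63 in controls and 6.64, 6.78 and 6.72 in LPS cells, a difference of 0.08 (SE 0.060, 95% interval -0.05 to 0.21, limma adjusted p = 0.802). LPS 1 lay within the controls, and the difference was 0.05 without LPS 2. The brightest TNFRSF9 probe set, 238950_at, read 6.39, 6.41 and 6.41 in controls and 6.46, 6.51 and 6.22 in LPS cells, so that LPS arrays held both its highest and its lowest value. Its difference was -0.0065 (SE 0.071, 95% interval -0.16 to 0.15, limma adjusted p = 0.992), with 0.10 within array set A and -0.19 within set B. The other TNFRSF9 probe sets differed by 0.05 and -0.02, at control levels of 6.15 and 6.16. Of the ligands of this pair, TNFSF8 (CD30 ligand) had a control level of 9.36 and a difference of -0.18 (limma adjusted p = 0.713), and TNFSF9 (4-1BB ligand) a control level of 8.01 and a difference of -0.15 (limma adjusted p = 0.719).

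Among the receptors for BAFF and APRIL, TNFRSF17 (BCMA), which supports plasma cell survival, was the probe set with the widest interval of the family. It read 11.15, 11.01 and 10.94 in controls and 11.20, 10.98 and 11.37 in LPS cells. LPS 3 was the highest array and LPS 2 lay within the controls. The difference was 0.15 (SE 0.11, 95% interval -0.09 to 0.39, limma adjusted p = 0.806), and it took opposite signs within the array sets, -0.06 in A and 0.40 in B. It was 0.06 without LPS 3 and 0.25 without LPS 2. In the fixed list of plasma cell markers, which includes TNFRSF17, 0 of 6 measured genes passed by limma. Beside 1890 of all 19775 genes, 1 of the 6 had an unadjusted p under 0.05. This was IRF4, which differed by 0.58 (limma adjusted p = 0.0852). IRF4 passed in the limma fit with the array set as a block (adjusted p = 0.00189), which called 400 of all 19775 genes. Of the 6 markers, 4 lay above 0 and 2 below, with a median of 0.07. Those below were XBP1 at -0.13 and JCHAIN at -0.05, while SDC1 was at 0.07 and PRDM1 at 0.06.

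TNFRSF13B (TACI), a receptor for both BAFF and APRIL that promotes class switching and restrains B cell numbers, read 7.97, 7.87 and 8.06 in controls and 8.12, 7.98 and 8.24 in LPS cells. LPS 2 lay within the controls, while the other LPS values were above them. The difference was 0.15 (SE 0.086, 95% interval -0.04 to 0.33, limma adjusted p = 0.733), with 0.07 within array set A and 0.28 within set B. Without LPS 3 it was 0.08, and without control 2 it was 0.10. TNFRSF13C (BAFF receptor), needed for the survival of mature B cells, read 7.21, 7.16 and 7.16 in controls and 7.14, 7.20 and 7.01 in LPS cells. The lowest value was that of LPS 3, and LPS 2 lay among the controls. Its difference was -0.06 (SE 0.068, 95% interval -0.21 to 0.08, limma adjusted p = 0.889), and -0.0097 without LPS 3 and -0.10 without LPS 2. The ligands TNFSF13 (APRIL) and TNFSF13B (BAFF) had control levels of 6.69 and 6.14, near or below the array medians, and differences of 0.04 and -0.0078.

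The TNF receptors themselves were around or below the array medians. TNFRSF1A, the widely expressed death domain receptor, read 6.37, 6.42 and 6.47 in controls and 6.48, 6.31 and 6.36 in LPS cells, a difference of -0.03 (SE 0.060, 95% interval -0.16 to 0.09, limma adjusted p = 0.941). TNFRSF1B, which lacks a death domain and binds TRAF2, read 6.17, 6.11 and 6.19 in controls and 6.21, 6.26 and 6.14 in LPS cells, a difference of 0.04 (SE 0.053, 95% interval -0.07 to 0.16, limma adjusted p = 0.905). It was 0.02 without control 2 or LPS 2 and 0.07 without LPS 3, and that of TNFRSF1A ran from -0.08 to 0.0015 over the same fits with 1 array left out. The groups overlapped in both. The ligands TNF and LTA had control levels of 6.42 and 6.67 and differences of 0.07 and 0.05. At values this close to the medians the intervals bound the change in the array signal, and the change in RNA may be larger.

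**Figure D3:**
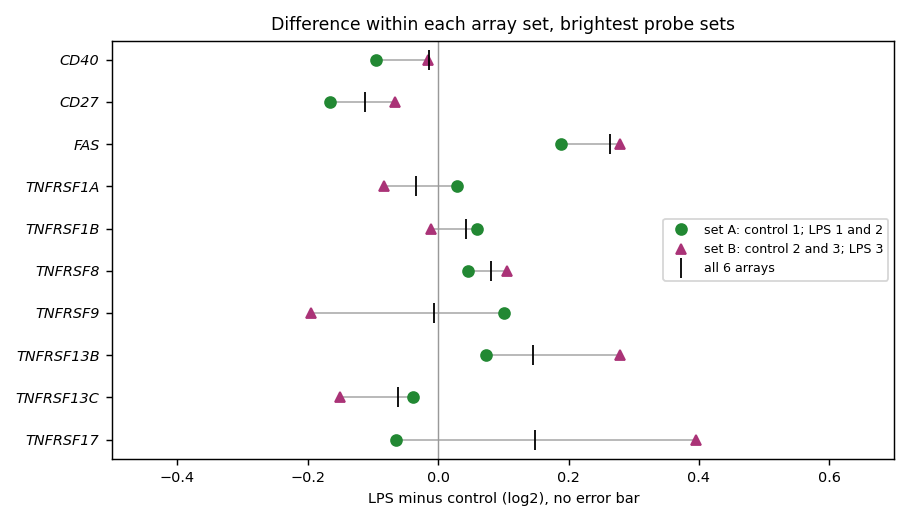
LPS minus control on the log2 scale for the brightest probe set of each member, within array set A (control 1 against LPS 1 and 2, circles), within set B (controls 2 and 3 against LPS 3, triangles) and over all 6 arrays (bars). FAS lies above 0 in both sets, at 0.19 and 0.28, as do TNFRSF8 (0.05 and 0.11) and TNFRSF13B (0.07 and 0.28). CD40, CD27 and TNFRSF13C lie below 0 in both. TNFRSF17 runs from -0.06 to 0.40 and TNFRSF9 from 0.10 to -0.19, and TNFRSF1A and TNFRSF1B also change sign.

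Of the 18 measured genes in a list of other TNF receptor superfamily members, 0 passed the limma test. At an unadjusted p under 0.05 there were 2, beside 1890 of all 19775 genes. These 2 are named here after their values were seen. One was TNFRSF21 (death receptor 6), at 0.19 (limma adjusted p = 0.577). The other was TNFRSF18 (GITR), a costimulatory receptor better known from T cells. Its means were 7.25 ± 0.099 for control and 7.69 ± 0.19 for LPS arrays (SD, n = 3), and all LPS values were above all controls. The difference was 0.44 (SE 0.092, limma adjusted p = 0.0732), and a dimmer probe set gave 0.35 (adjusted p = 0.133). When the array set entered as a block, TNFRSF18 passed, at 0.48 (adjusted p = 0.00203) and 0.36 (adjusted p = 0.0152), in a fit that called 1.34% of all probe sets and 0 of the 19 member probe sets. The lymphotoxin receptor LTBR differed by 0.03 and TNFRSF14 (HVEM) by -0.0028.

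Transcripts of the proteins that carry the signal inside the cell were measured in 3 fixed lists, and 0 genes of any list passed. Of 12 TRAF proteins and TRAF-bound regulators, 8 lay above 0 and 4 below, with a median of 0.03. An unadjusted p under 0.05 was found for 4 of them, beside 1890 of all 19775 genes. These 4 were TNFAIP3 (0.39, limma adjusted p = 0.0788), TRAF4 (0.29, adjusted p = 0.287), TRAF5 and TRAF3IP2 (-0.19, adjusted p = 0.547). TRAF3, which restrains the non-canonical NF-kB pathway below CD40 and the BAFF receptor, differed by 0.14 (limma adjusted p = 0.802) and the kinase it controls, MAP3K14 (NIK), by 0.03 (adjusted p = 0.956). TRAF1 differed by -0.01, TRAF6 by 0.06, and TRAF5, a TRAF used by CD27 and CD40, by -0.18 (adjusted p = 0.440). Of 13 death domain signalling genes, 7 lay above 0 and 6 below, with a median of 0.01 and 0 at an unadjusted p under 0.05 by their brightest probe sets. The adaptors FADD and TRADD differed by 0.05 and -0.0056, CASP8 by 0.05 and CFLAR, its inhibitor, by 0.14 (adjusted p = 0.723). Among the dimmer probe sets of this list 4 had an unadjusted p under 0.05. That of CASP8 differed by -0.17 (adjusted p = 0.502), opposite in sign to the brightest, that of CFLAR by 0.16 (adjusted p = 0.572), and both of OTULIN by 0.20 (adjusted p = 0.440) and 0.26 (adjusted p = 0.120).

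The 11 NF-kB subunits and inhibitors had a median of 0.18, with 9 above 0, beside a median of 0.0016 over all genes. Of the 11, 4 had an unadjusted p under 0.05, beside 1890 of all 19775 genes. They were NFKBIE (0.49, limma adjusted p = 0.0572), NFKBIB (0.28, adjusted p = 0.245), the kinase CHUK (0.26, adjusted p = 0.388) and RELB. RELB, the subunit activated by CD40 and the BAFF receptor, differed by 0.43 (SE 0.14, limma adjusted p = 0.344), and its groups overlapped. NFKB2, its partner, differed by 0.24 (adjusted p = 0.644). Within the array sets this list had medians of 0.06 and 0.12, and with array set as a block its median was 0.03. The part of the array sets in the list's median was not tested beyond these values. In that fit TNFAIP3 (adjusted p = 0.0143), NFKBIE (adjusted p = 0.00369) and a dim probe set of OTULIN (adjusted p = 0.0337) passed, and no other gene of these 3 lists did.

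Of the 8 measured ligands of the members, 0 had an unadjusted p under 0.05, and the median was -0.02. FASLG differed by -0.04 at a control level of 6.29. Among the 5 measured genes of proteases and gamma-secretase subunits, which shed members of this family from the cell surface, the median was 0.04. By brightest probe set 0 of the 5 passed and 1, APH1A, had an unadjusted p under 0.05 (0.31, limma adjusted p = 0.331), beside 1890 of all 19775 genes. ADAM10 differed by 0.05 and ADAM17 by -0.12 (limma adjusted p = 0.757). CD40LG, TRAF2, BIRC3, RIPK1 and TNFRSF6B were on the lists without a probe set of 1 gene symbol, and were not used here.

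**Figure D4:**
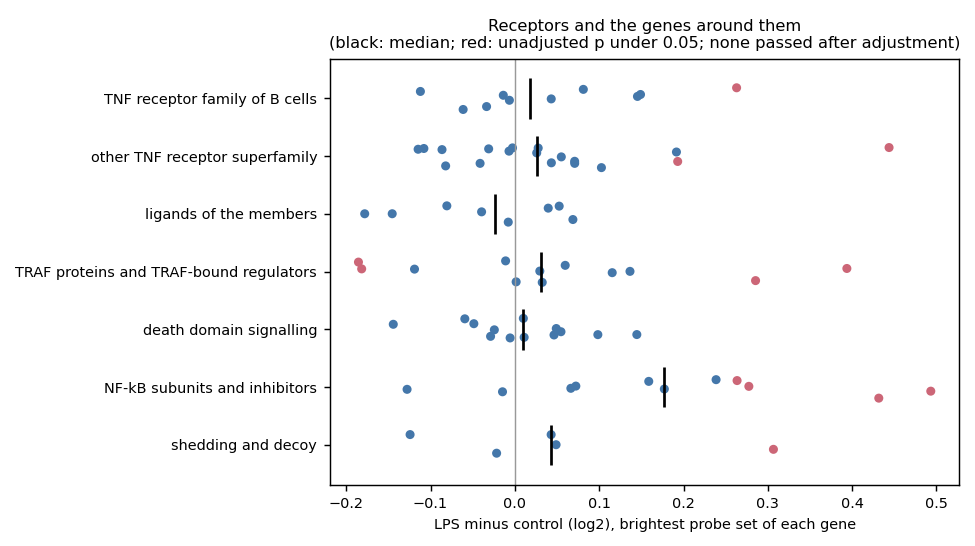
LPS minus control on the log2 scale for the brightest probe set of each gene in the member family and in 6 related lists; black bars are list medians and red points have an unadjusted p under 0.05. FAS is the red point of the family, and the NF-kB list has a median of 0.18, which was 0.03 in the fit with the array set as a block.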

How the data were processed

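The table deposited by the authors holds 1 value per probe set and array, taken as log2 from its range (5.46 to 14.81). Background correction, summary and normalisation are not given in the sources used here, and the deposited log2 values were used unchanged. Per the labels' protocols, RNA was column-purified and biotin-labelled by in vitro transcription. After leaving out 62 Affymetrix controls, 54613 probe sets were tested. Of these 41091 had 1 symbol, 1801 several and 11721 none in the platform annotation, and 41037 matched RefSeq (GRCh38.p14), with 0 symbols changed. The probe set with the highest mean over all arrays stood for a gene.

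LPS was compared with control in R 4.3.3 with limma 3.58.1, with group as the only term, an intensity trend, two-sided tests and Benjamini-Hochberg adjustment over the whole tested table. The steps were tested on simulated data without array sets. Differences were planted only in probe sets brighter than the median, and were larger than that of any member. How often shifts as small as those of the members would be found was thus not tested. Array sets came from 18 hybridisation control probe sets, parted at the widest gap in their mean (0.22, the next being 0.081). The number of arrays limits the precision (median SE 0.063). Named were all members, fixed partners, related genes that passed, the 3 genes nearest to the member with the smallest p, and genes said to be singled out later. Members, lists, the array sets and tests were chosen with earlier results of these data known. Alternatives covered blocks, normalisation, filters, weights, the threshold, the probe set rule and leaving out each array.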

Additional observations from a re-analysis of the deposited data

How the results depend on the processing

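The member count of 0 was the same under the replicate block, the array set block, quantile normalisation, median centring, the filter on dim probe sets, no intensity trend, array weights and a threshold of 0.1. Leaving out 1 array gave 0 to 1, the 1 being FAS 215719_x_at without control 1. The table's count of 144 was 498 with the replicate block, 734 with the array set block, 292 with quantile normalisation, 309 with array weights, 265 at a threshold of 0.1, and 10 to 374 when 1 array was left out (374 without control 1, 46 without control 2, 14 without control 3, 44 without LPS 1 and 10 without LPS 2). The median over the members, 0.02, was 0.0812 after the filter on dim probe sets, which leaves 7 of the 10 genes, and -0.00039 to 0.0648 when 1 array was left out, the latter without LPS 3.

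Of 146 values of single members under alternatives, 0 passed and 8 had the opposite sign, those of CD40, TNFRSF9, TNFRSF1A and FAS. Part of the 146 could not change sign. The replicate block, no intensity trend and the filter on dim probe sets leave a difference as it was. So do the probe set rules for a gene whose probe set stays the same. The 8 are therefore no measure of how stable the signs are. The other members kept their sign, though leaving out 1 array moved CD27, TNFRSF8, TNFRSF13B, TNFRSF13C, TNFRSF17 and TNFRSF1B by over 1.5 times. CD40 was 0.0150 with array weights, and -0.0480 to 0.0407 when 1 array was left out (above 0 without control 1 and without LPS 3). TNFRSF9 was 0.0221 with array weights, 0.00921 as the mean over its probe sets, and -0.0633 to 0.0835 when 1 array was left out (above 0 without LPS 3). TNFRSF1A was -0.0806 to 0.00148 when 1 array was left out (above 0 without LPS 2). FAS was -0.0234 without probe sets marked _x_at or _s_at, where 233820_at stands for it, and 0.21 to 0.31 when 1 array was left out. The cause of these changes was not tested, apart from the genes the filter removes and the probe set that replaces another.

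Same-numbered arrays did not deviate together throughout (correlations of deviations from group means 0.44, -0.04 and 0.23), so the numbers were not taken as pairs, and not every array correlated best with its own number. With the replicate block FAS had an adjusted p of 0.107, and no member call changed.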

Other observations

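Over all 6 arrays, in a fit with LPS and array set as terms, 14 of the 19 member probe sets had a lower value in set B than A, and none of them passed for that difference (lowest limma adjusted p = 0.162, for FAS 215719_x_at, at -0.17). CD40 was at -0.12 by its brightest probe set, CD27 at -0.01 and TNFRSF13B at 0.09.

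Germinal centre markers, the stage Burkitt lymphoma resembles, had larger differences than the receptors by their median, a comparison that was not tested. Of 7 measured, 7 lay below 0 by their brightest probe sets, beside 9728 of all 19775 genes, and their median was -0.31. Of the 7, 1 passed, beside 77 of all genes. It was MYBL1, which fell by 0.56 (limma adjusted p = 0.0288). In the fit with the array set as a block 3 of the 7 passed, MYBL1, CD38 and BCL6, beside 400 of all 19775 genes. The memory B cell markers, of which CD27 is one, had a median of -0.02 over 4 genes.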
